A study of Caenorhabditis elegans with 24 samples.

Results

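The effect of losing daf-16 was compared between adult and larval Caenorhabditis elegans at 25 °C. The 12 arrays used were those whose titles give 25 °C, out of 24 in all, and they form 4 groups of 3. Mutant adults carried daf-16(mgDF47) and were kept at 25 °C for 3 days from the late L4 stage, and wild-type adults were kept in the same way. Mutant larvae carried the same allele and grew at 25 °C from the embryo to late L4, the last larval stage, beside wild-type larvae raised alike. Each preparation was total RNA of whole worms, about 120 adults or about 300 larvae pooled. The other 12 arrays hold the same genotypes and stages at 15 °C. Nothing in the labels ties a preparation to a culture of its own, so the p-values measure the spread between preparations, which may be technical. The quantity of interest is a difference of differences, the mutant-minus-wild-type difference in adults minus that in larvae, for 25434 genes with a single symbol.

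DAF-16 is a FOXO transcription factor, and insulin-like signalling in C. elegans acts on genes through it. When signalling through the insulin receptor DAF-2 is low, DAF-16 enters the nucleus, and it is known for stress resistance, fat storage, dauer formation and long life. Genes that it raises are often called class 1 targets, and genes that are lower where it is active are called class 2 targets. The allele is a deletion that is present in larval life and in adulthood alike. The comparison asks at which stage a gene's messenger RNA depends on daf-16.

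Values are on the log2 scale, as the authors' RMA processing gave them, and a difference of 1 is a change of 2-fold. The arrays had medians between 3.59 and 3.70 in adults and between 3.02 and 3.08 in larvae at 25 °C, and 3 probe sets were blank in all adult arrays. The distributions thus differ between stages, and levels were compared within a stage and never between stages. Arrays of 1 group correlated at 0.990 to 0.996 across genes. A gene was called where its adjusted p from limma was under 0.05, over all genes tested. In RNA of whole worms, fewer cells of a type and less RNA per cell cannot be told apart.

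The gene daf-16 itself checked the labels. Its probe set read 8.72, 8.83 and 8.20 in mutant adults, against 10.63, 10.56 and 10.59 in wild-type adults. It read 6.19, 6.40 and 5.99 in mutant larvae, against 8.57, 8.78 and 8.68 in wild-type larvae. All mutant arrays lay below all wild-type arrays of their stage, on average by 2.01 ± 0.16 (SE) in adults and 2.48 ± 0.16 in larvae. Where the probes lie relative to the deletion is not stated in the labels or the files. The stage labels were checked against the vitellogenin genes for yolk, which are known to be active in adults. Their median member ranked at percentile 99.9 of all genes in both adult groups, compared with 95.4 in mutant and 94.4 in wild-type larvae.

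Many more genes passed the test in adults than in larvae. In mutant adults 345 genes were higher (1.36% of the genes tested) and 417 lower (1.64%) than in the wild type, together 3.00%, and 65 of the higher and 138 of the lower genes differed by at least 2-fold. In mutant larvae 3 genes were higher (0.0118%) and 27 lower (0.106%), together 0.118%, with 1 and 17 of them past 2-fold. The difference between the stages was called for 113 genes (0.444%). It was positive for 46 (0.181%) and negative for 67 (0.263%). With all arrays quantile-normalized together it was positive for 31 and negative for 73. Centring each array on its median gave 446 higher and 368 lower genes in adults, and quantile normalization of all arrays gave 24 higher and 35 lower genes in larvae. At an unadjusted p under 0.05 there were 3571 genes in adults, 1268 in larvae and 2481 for the difference between stages. A share of 0.05 of all genes is expected at that limit where nothing differs, and the larval count is near it. The same share is expected for the unadjusted counts of lists below. The median SE was 0.158 for the effect within a stage, the same in adults and larvae by construction of the fit, and 0.223 for the difference between stages.

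These calls sorted the genes into classes. Adult-only genes were called in adults and not in larvae, with a called stage difference in the adult direction, 39 of them higher and 65 lower in the mutant. Larval-only genes were defined in the mirrored way, and there were 5. Shared genes were called in both stages in the same direction without a called stage difference, and there were 9, each of them lower in the mutant at both stages. With limma 0 genes were called in opposite directions at the 2 stages. Mutant and wild-type arrays did not overlap in adults for 19.8% of all genes and in larvae for 9.66%, and these shares are the background for such statements below. A further 4 genes had a called stage difference with neither stage called. For 649 genes called in adults and 16 called in larvae the test of the difference did not settle the class, and their stage dependence remains undetermined. The name of a class gives calls and does not state that the other stage had no effect. At the edge of the class, ceh-92 with a stage difference of 0.62 (adjusted p = 0.0498) and H12C20.7 with 0.57 (0.0498) fell inside, and C08F11.7 with 1.28 (0.0502) and R102.4 with −0.70 (0.0502) fell outside.

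**Figure D1:**
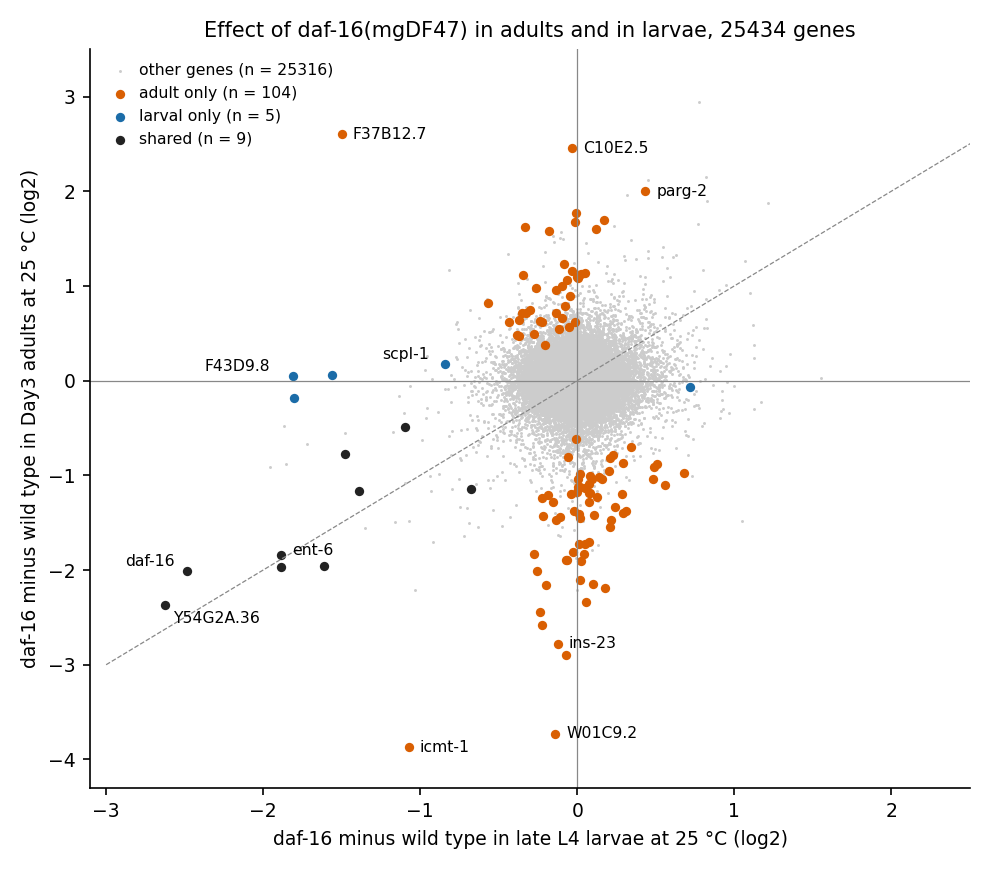
Mutant-minus-wild-type difference in Day3 adults (vertical axis, log2) against that in late L4 larvae (horizontal axis, log2) at 25 °C, 1 point per gene, with 39 higher and 65 lower adult-only, 5 larval-only and 9 shared genes in colour and equal effects on the dashed line. The adult-only genes lie along the vertical axis, and the 9 shared genes lie in the lower left near the dashed line.

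The sizes of the adult-only effects were set against the larval effects of the same genes. The 65 genes lower in mutant adults differed by 0.61 to 3.87 log2 units there, with a median of 1.33, and 54 of them passed 1 log2 unit. The class admits no called larval difference, so small larval sizes are part of its definition. Their larval differences had a median size of 0.12, compared with 0.105 over all genes, and 61 of the 65 were under 0.5. The 39 genes higher in mutant adults differed by 0.37 to 2.60, with a median of 0.95, and 17 passed 1 log2 unit. Their larval differences had a median size of 0.14, and 37 of the 39 were under 0.5. The largest larval sizes belonged to icmt-1 among the lower genes and F37B12.7 among the higher ones. Both larval groups lay below the median gene of their arrays for 47 of the adult-only genes (45.2%), compared with 49.3% of all genes. Among the 649 genes called in adults with an unsettled class this share was lower, at 27.7% (180 genes). The part of low larval signal in the adult-only class was not tested. Of the 113 genes with a called stage difference, 97 were protein coding, compared with 18768 of all 25434.

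The largest fall with a gene name was that of icmt-1, an isoprenylcysteine carboxyl methyltransferase, an enzyme that methylates prenylated proteins. It read 2.57, 3.10 and 3.12 in mutant adults, against 7.82, 6.02 and 6.57 in wild-type adults. In larvae it read 3.43, 3.39 and 3.70 in the mutant, against 4.65, 4.44 and 4.65 in the wild type. The groups did not overlap at either stage, and the wild-type adults varied the most. The adult difference was −3.87 ± 0.27 (SE, n = 3 each, limma adjusted p = 8.3e-09). The mutant adult values lay below the median gene of their arrays, so no fold is given. The larval difference was −1.07 (adjusted p = 0.21), and the stage difference was −2.80 ± 0.38 (adjusted p = 0.00038). Its neighbour in the RefSeq gene order, unc-38, encodes an alpha subunit of the levamisole-sensitive acetylcholine receptor of muscle. For unc-38 mutant adults read 4.40, 4.55 and 4.59, against 6.99, 5.92 and 6.10 in the wild type. The adult difference was −1.83 and the larval difference 0.05, with a stage difference of −1.87 ± 0.28 (adjusted p = 0.00096). Among the 113 genes 8 stood in 4 such pairs of direct neighbours, and the members of a pair shared their direction. The other pairs were W01C9.2 and pqn-73, F56D6.8 and dct-8, and Y110A2AL.9 and Y110A2AL.3. Of all 762 genes called in adults, 79 had a called direct neighbour. Of all genes tested 3.00% were called in adults and 0.444% for the stage difference. How many called neighbours random sets of these sizes would hold was not tested.

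Insulin-like peptides are the ligands of the pathway that ends in DAF-16, and 40 of their genes were tested. In mutant adults 6 were lower and 1 was higher, a share of 17.5% against 3.00% of all genes, and limma called 0 in larvae, where 6 had an unadjusted p under 0.05. The list's median difference was −0.06 in adults and −0.12 in larvae, beside medians of all genes of 0.02 and −0.02. For ins-23 mutant adults read 6.12, 5.52 and 6.06, against 8.49, 8.44 and 9.10 in the wild type. In larvae ins-23 read 2.41, 1.89 and 2.17 in the mutant, against 2.09, 2.19 and 2.56 in the wild type. The adult groups lay more than 2 log2 units apart and the larval groups overlapped at a low level. The stage difference of ins-23 was −2.65 ± 0.31 (limma adjusted p = 7e-05), with an adult difference of −2.78, 6.85-fold lower in the mutant.

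The peptide gene ins-7 is known as a gene that DAF-16 lowers in adults, and here it was lower without daf-16. Mutant adults read 7.61, 7.54 and 7.65, against 8.33, 9.2 and 8.41 in wild-type adults. Mutant larvae read 3.33, 3.66 and 3.82, against 3.40, 3.16 and 2.80 in wild-type larvae. The adult groups were apart by 1.04 and the larval groups overlapped. The stage difference of ins-7 was −1.52 ± 0.33 (limma adjusted p = 0.032). This call was lost in 8 of the 12 fits that left out 1 array, with adjusted p between 0.018 and 0.097, and the adult call was lost without the second wild-type or the second mutant adult array. Of the other peptides, ins-27 had a stage difference of −1.16 at the edge of the threshold, which 9 of those 12 fits lost. The adult call of ins-22 was lost in 5 of them. Adult differences were −1.30 for ins-22, −0.97 for ins-10 and −0.72 for ins-29, and 0.86 for daf-28, the single peptide gene that was higher. For ins-22, ins-10, ins-29 and daf-28 the stage difference was not called.

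Genes of transporters and of the nervous system were also among the named falls. The gene swt-3 belongs to the SWEET family of sugar transporters. It read 6.29, 5.57 and 5.60 in mutant adults, against 7.63, 8.20 and 8.20 in wild-type adults. In larvae it read 7.98, 7.85 and 8.02 in the mutant, against 7.84, 7.71 and 7.75 in the wild type. The mutant was thus lower on all adult arrays and slightly higher on all larval arrays. The adult difference was −2.19 and the larval one 0.18, and the stage difference was −2.37 ± 0.32 (limma adjusted p = 0.00029). A member of the major facilitator family, mfsd-8.1, behaved alike with −1.10 in adults and 0.56 in larvae (stage difference −1.66 ± 0.25, adjusted p = 0.0013). Of these larval differences neither was called. The secreted protein HEN-1, which carries an LDL receptor motif and acts in sensory integration, is encoded by hen-1. In adults hen-1 read 5.29, 5.22 and 5.19 in the mutant, against 7.14, 6.94 and 7.32 in the wild type. All larval values of hen-1 lay between 1.60 and 1.79, and its stage difference was −1.83 ± 0.24 (adjusted p = 0.00029). The serotonin receptor gene ser-4 read 6.46, 6.49 and 6.20 in mutant adults, against 7.62, 7.75 and 7.48 in wild-type adults. Its larval groups overlapped and its stage difference was −1.36 ± 0.17 (adjusted p = 0.00024). The chemoreceptor gene sri-43 differed by −1.71 in adults and 0.08 in larvae.

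**Figure D2:**
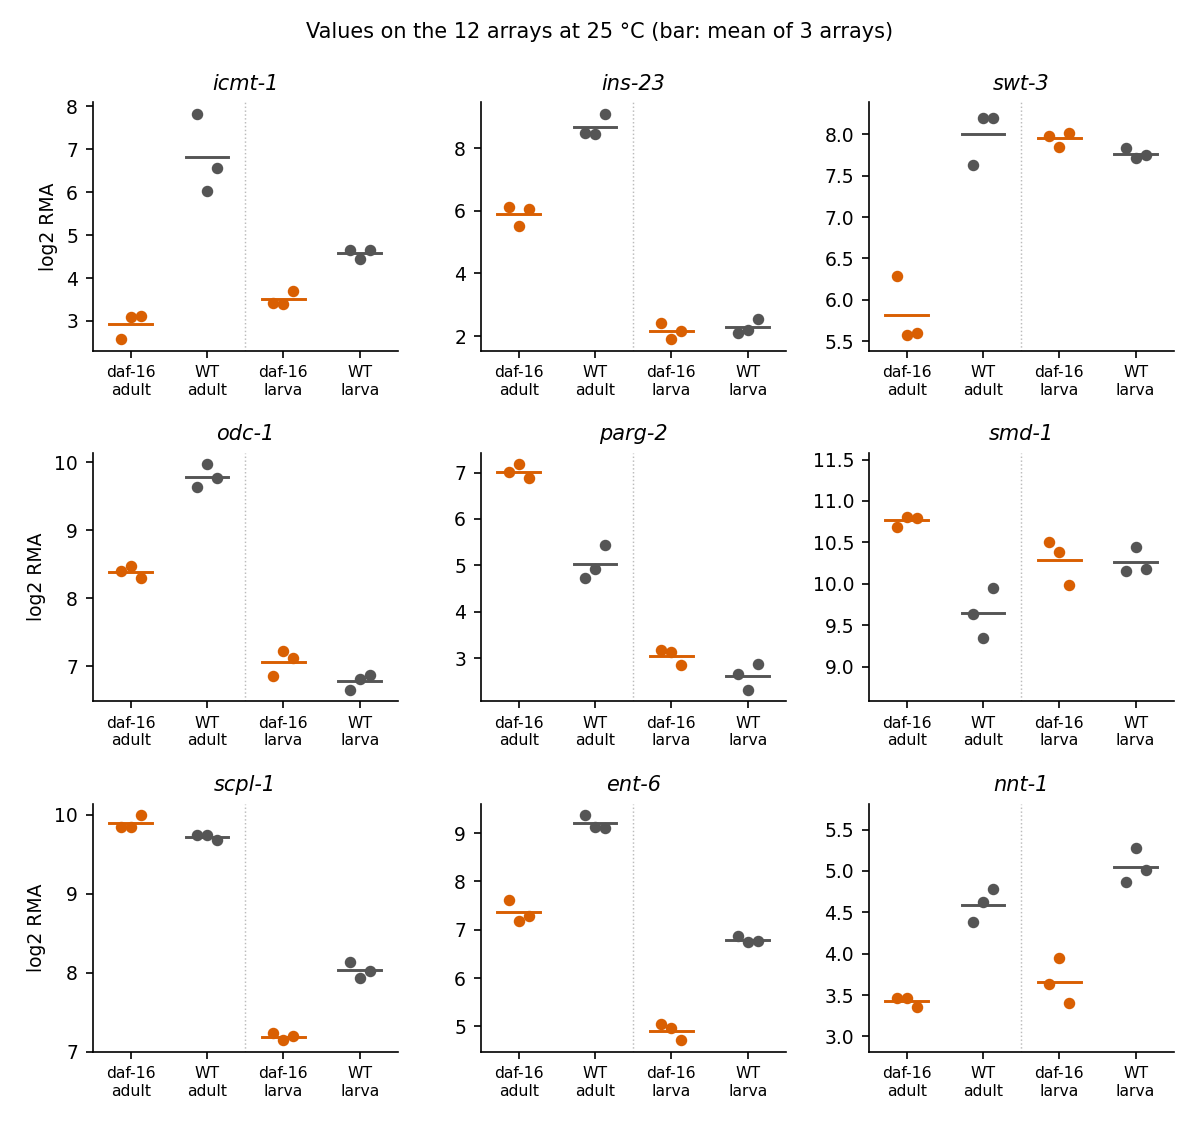
Values (vertical axis, log2 RMA) of 9 genes on each of the 12 arrays at 25 °C, with mutant groups in orange left of the wild-type groups of the same stage in grey, and the mean of 3 arrays as a bar. For ins-23, swt-3, odc-1, parg-2 and smd-1 the mutant and wild type separate in adults, for scpl-1 the separation is far larger in larvae, and for ent-6 and nnt-1 it appears at both stages.

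A pair of enzymes of polyamine synthesis changed in opposite directions. Ornithine decarboxylase, which makes putrescine, is encoded by odc-1. It read 8.40, 8.48 and 8.29 in mutant adults, against 9.63, 9.97 and 9.77 in wild-type adults. In larvae it read 6.86, 7.22 and 7.12 in the mutant, against 6.65, 6.81 and 6.87 in the wild type. The adult groups were well apart, the larval groups overlapped slightly, and the stage difference was −1.69 ± 0.19 (limma adjusted p = 5.3e-05). The gene smd-1 encodes S-adenosylmethionine decarboxylase, which supplies the group that turns putrescine into spermidine. It read 10.69, 10.81 and 10.80 in mutant adults, against 9.63, 9.35 and 9.95 in wild-type adults. In larvae smd-1 read 10.50, 10.38 and 9.98 in the mutant, against 10.16, 10.45 and 10.18 in the wild type. The adult groups did not overlap and the larval groups did, and the stage difference of smd-1 was 1.10 ± 0.21 (adjusted p = 0.014). The call for smd-1 was lost without the second wild-type adult array and without the second wild-type larval array, with adjusted p up to 0.060. It was also lost with the arrays of 1 temperature and without preparation 3 of larvae at 25 °C in both genotypes.

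Other named falls included dct-8, named for its control by DAF-16 and its effect on germline tumours. Mutant adults read 3.55, 3.32 and 3.73 for dct-8, against 6.87, 5.75 and 5.71 in wild-type adults. Its stage difference was −2.35 ± 0.32 (limma adjusted p = 0.00037), and all its larval values lay between 0.94 and 1.68, near the bottom of the scale. For idpp-2 the adult difference was −1.81 and the larval −0.02. For pqn-73, which encodes a protein rich in glutamine and asparagine, these were −1.73 and 0.01. The stage call of pqn-73 was lost without preparation 3 of larvae at 25 °C in both genotypes. The serine protease inhibitor gene spi-2 differed by −1.37 in adults and 0.31 in larvae. For the transthyretin-related gene ttr-26 the differences were −0.92 and 0.49, and 8 of the 12 fits without 1 array lost the stage call. Genes with a sequence name alone fell outside the rule for named genes and were looked up after their values were seen. The strongest was W01C9.2, which read 3.02, 2.82 and 2.81 in mutant adults, against 7.34, 5.86 and 6.65 in wild-type adults. Its adult difference was −3.73, against mutant values below the median gene of their arrays, and its larval values ran from 1.60 to 2.13 with overlapping groups. For T05B9.3 the adult difference was −2.90 and the larval −0.07.

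Among the rises in the stage difference named by rule, the largest was that of parg-2, which encodes a poly(ADP-ribose) glycohydrolase, an enzyme that removes poly(ADP-ribose) chains from proteins. It read 7.01, 7.18 and 6.88 in mutant adults, against 4.72, 4.91 and 5.43 in wild-type adults. In larvae parg-2 read 3.17, 3.12 and 2.85 in the mutant, against 2.66, 2.31 and 2.86 in the wild type. The adult groups were apart by at least 1 log2 unit and the larval groups overlapped by a single value. The adult difference was 2.0 ± 0.18, a 4-fold rise, and the stage difference 1.57 ± 0.25 (limma adjusted p = 0.003). The gene nhj-1 acts in non-homologous end joining, and it read 7.43, 7.06 and 7.34 in mutant adults, against 6.25, 6.42 and 6.24 in wild-type adults. Its stage difference was 1.24 ± 0.23 (adjusted p = 0.013). The caenacin antimicrobial peptide gene cnc-6 read 6.74, 6.95 and 7.03 in mutant adults, against 5.72, 6.23 and 5.91 in wild-type adults. Its larval values lay between 1.01 and 1.47, and its stage difference was 1.09 ± 0.20 (adjusted p = 0.012). The lectin gene clec-74 had an adult difference of 1.10, and the mucin-like gene mul-1 one of 1.15. The stage call of clec-74 was lost without the second wild-type larval array (adjusted p = 0.053), and that of mul-1 in 6 of the 12 fits without 1 array. Those of cnc-6, clec-74 and mul-1 were also lost with all arrays quantile-normalized together. Leaving out preparation 3 of larvae at 25 °C in both genotypes lost them too.

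The remaining named rises also rested in part on single arrays. Stage differences were 1.32 for dmsr-11, 1.09 for lurp-4, 1.07 for gtnt-27, 1.01 for the chitinase-like gene chil-25 and 0.94 for cyts-1. Of the 12 fits without 1 array, the call was lost in 10 for dmsr-11, 8 for lurp-4, 2 for gtnt-27, 4 for chil-25 and 10 for cyts-1. Among genes with a sequence name, chosen after their values were seen, C10E2.5 read 7.71, 7.92 and 7.61 in mutant adults, against 5.47, 5.15 and 5.25 in wild-type adults. Its larval values ran from 2.40 to 2.77 with overlapping groups, and its stage difference was 2.49 ± 0.17 (limma adjusted p = 3e-08). The stage difference furthest from 0 in either direction belonged to F37B12.7. It read 4.81, 7.30 and 6.90 in mutant adults, against 3.58, 3.97 and 3.65 in wild-type adults. In larvae F37B12.7 read 3.06, 3.13 and 3.52 in the mutant, against 3.93, 5.03 and 5.25 in the wild type. Mutants were thus higher on all adult arrays and lower on all larval arrays, and the stage difference was 4.10 ± 0.72 (adjusted p = 0.0061). The larval part, −1.5, was not called (adjusted p = 0.62).

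**Figure D3:**
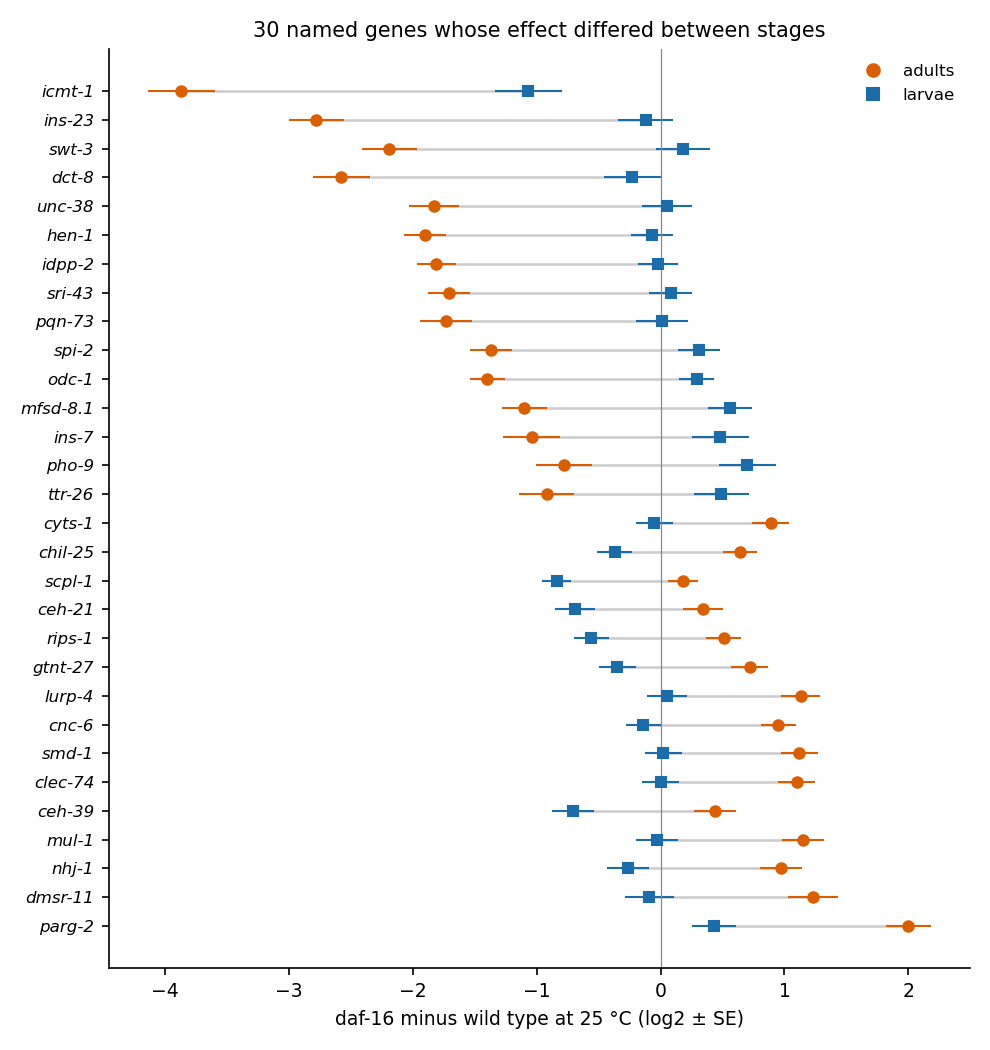
Mutant-minus-wild-type difference at 25 °C (horizontal axis, log2, bars 1 SE) in adults and in larvae for the 30 genes named by rule, ordered by their stage difference. From icmt-1 at −3.87 in adults to parg-2 at 2.0, the adult effect is the larger one for all of them except scpl-1, ceh-21, ceh-39 and rips-1.

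The 4 genes with a called stage difference and no call in either stage had effects of opposite sign. The stage difference has a larger median SE (0.223) than the effect within a stage (0.158). Effects of the same sign, each too small for a call, thus could not give a called stage difference. The opposite signs follow from the definition of this set. The homeobox genes ceh-21 and ceh-39 belong to the ONECUT family, and rips-1 and the acid phosphatase gene pho-9 complete the set. For ceh-39 mutant adults read 9.62, 9.73 and 9.62, against 9.39, 9.2 and 9.06 in wild-type adults. In larvae ceh-39 read 5.50, 5.44 and 4.87 in the mutant, against 6.10, 6.09 and 5.77 in the wild type. Groups did not overlap at either stage, with 0.44 in adults and −0.71 in larvae. For ceh-21 these were 0.34 and −0.69, and for rips-1 they were 0.51 and −0.56. For pho-9 the order was turned, with −0.78 in adults and 0.70 in larvae. The stage call was lost in 8 of the 12 fits without 1 array for ceh-39, 9 for ceh-21 and 11 for pho-9. For rips-1 the stage difference was 1.07 ± 0.20 (limma adjusted p = 0.014). Of those 12 fits, only the one without the second wild-type adult array lost its call (adjusted p = 0.056). The fit to the arrays of 1 temperature lost it as well.

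Larval-only genes were few. The one that kept its stage call in all 12 fits without 1 array and has a gene name was scpl-1, which encodes a small phosphatase of the kind that acts on the tail of RNA polymerase. Mutant adults read 9.85, 9.85 and 10, against 9.75, 9.74 and 9.68 in wild-type adults. Mutant larvae read 7.23, 7.14 and 7.20, against 8.14, 7.93 and 8.02 in wild-type larvae. The groups did not overlap at either stage, and mutants were slightly higher in adults and lower in larvae. The adult difference was 0.18 (limma adjusted p = 0.59), and the larval difference was −0.84 ± 0.12 (adjusted p = 0.001), 1.79-fold lower in the mutant. The stage difference of scpl-1 was 1.02 ± 0.17 (adjusted p = 0.0039).

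Of the other larval-only genes, F43D9.8 read 4.78, 4.94 and 3.92 in mutant larvae, against 6.61, 6.49 and 5.97 in wild-type larvae. Its adult groups overlapped between 8.40 and 8.84, and its stage difference was 1.86 ± 0.35 (limma adjusted p = 0.012). For F17B5.1 mutant larvae read 1.92, 1.69 and 1.74, against 3.34, 2.70 and 4.0 in wild-type larvae. The stage difference of F17B5.1 was 1.62 ± 0.29 (adjusted p = 0.0085), and its adult values lay between 1.87 and 2.13. The larval difference of F45D11.1 was −1.81, and its stage call was lost in 8 of the 12 fits without 1 array and with a block by preparation number within stage and temperature (adjusted p = 0.062). The single rise, 0.72 for K09C4.4, lost its stage call in 10 of those fits and with the block (adjusted p = 0.088), and its larval call in 3.

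The 9 shared genes included daf-16 itself and a gene nearby. Of the 20 tested genes nearest to daf-16, 10 on either side in the RefSeq order, 2 were called in adults and 1 in larvae. Over all genes 3.00% were called in adults and 0.118% in larvae. Among the 20, F55A3.6 was called at both stages, and spt-16, a subunit of the histone chaperone FACT, was called in adults at −0.66. For F55A3.6 mutant adults read 4.06, 4.05 and 4.23, against 5.97, 6.07 and 6.18 in wild-type adults. In larvae F55A3.6 read 2.77, 2.06 and 2.25 in the mutant, against 3.81, 4.32 and 3.77 in the wild type. The differences were −1.96 and −1.61, with no overlap of groups at either stage. Where the probes of F55A3.6 lie relative to the deletion is not stated in the labels or the files. The part of the deletion itself in this fall was not tested.

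The equilibrative nucleoside transporter gene ent-6 had nearly equal effects at both stages. It read 7.61, 7.19 and 7.28 in mutant adults, against 9.38, 9.13 and 9.10 in wild-type adults. In larvae ent-6 read 5.05, 4.97 and 4.71 in the mutant, against 6.87, 6.75 and 6.77 in the wild type. Mutants were lower on every array, by 1.84 ± 0.14 in adults and 1.89 ± 0.14 in larvae. The stage difference was 0.04 ± 0.19 (limma adjusted p = 0.97). Of the 9 shared genes, Y54G2A.36 had the largest adult and the largest larval fall. It read 7.03, 6.94 and 7.03 in mutant adults, against 9.75, 9.07 and 9.26 in wild-type adults. In larvae Y54G2A.36 read 4.06, 3.53 and 3.49 in the mutant, against 6.85, 6.34 and 5.78 in the wild type. The falls were thus 2.37 in adults and 2.63 in larvae, 5.15-fold and 6.18-fold.

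Among the shared genes were also mitochondrial and peroxisomal enzymes. The nicotinamide nucleotide transhydrogenase gene nnt-1, whose product makes NADPH in mitochondria, read 3.46, 3.47 and 3.35 in mutant adults, against 4.38, 4.62 and 4.78 in wild-type adults. In larvae nnt-1 read 3.63, 3.95 and 3.41 in the mutant, against 4.87, 5.28 and 5.01 in the wild type. The falls of 1.16 and 1.39 were called at both stages, with limma adjusted p of 5.3e-05 in adults and 2.2e-05 in larvae. The acyl-CoA oxidase gene acox-1.4, of peroxisomal fatty acid oxidation, fell by 1.14 in adults and 0.67 in larvae. Its larval call was lost in 7 of the 12 fits without 1 array. The kinase gene gakh-1, a homolog of cyclin G-associated kinase, fell by 0.49 in adults and 1.10 in larvae, and its adult call was lost in 5 of those fits. The differences of F21C10.11 were −1.97 in adults and −1.88 in larvae, and its larval call was lost without the third wild-type or the third mutant larval array, with adjusted p up to 0.078. Those of Y6G8.2 were −0.78 and −1.48. The 9 shared genes made up 1.18% of the genes called in adults and 30% of those called in larvae.

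Most larval calls that were not settled pointed the same way in adults. Of the 16 larval genes with an unsettled class, 15 had an adult difference of the same sign. Among the 24647 genes called nowhere, 12177 had the same sign at both stages. Of all 30 genes called in larvae, 25 had an adult difference of the same sign. Of the 762 called in adults, 443 had a larval difference of the same sign. The last 2 counts include the 9 shared genes, which have the same sign by definition. The unsettled class leaves out genes with a called stage difference, and this favours the same sign, so its count is not a separate result. Of the 5 larval-only genes, 1 had the same sign in adults. The metallothionein gene mtl-1, a classic target raised by DAF-16, read 9.29, 9.3 and 9.12 in mutant adults, against 9.63, 9.59 and 9.91 in wild-type adults. In larvae mtl-1 read 2.0, 1.91 and 3.19 in the mutant, against 3.57, 4.18 and 4.95 in the wild type. All mutant arrays lay below all wild-type arrays of their stage. The adult difference was −0.48 (limma adjusted p = 0.57) and the larval one −1.87 ± 0.31 (adjusted p = 0.0058). The stage difference of mtl-1, 1.39 ± 0.44, was not called (adjusted p = 0.21). Its larval call was lost without the third wild-type, the first mutant or the second mutant larval array, with adjusted p up to 0.077.

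The non-coding RNA tts-1, known to be abundant in long-lived worms with active DAF-16, differed by −0.56 in adults (limma adjusted p = 0.17) and fell by 1.48 in larvae (adjusted p = 0.00049). The small heat shock protein gene sip-1 differed by −0.28 in adults and fell by 0.95 in larvae. Adult differences were 0.10 for the BIR-domain gene bir-2 and −0.04 for pkhm-2, while in larvae bir-2 fell by 0.63 and pkhm-2 by 0.72. Of the 12 fits without 1 array, 5 lost the larval call of bir-2 and 2 that of pkhm-2. The bir-2 stage difference was 0.73 (adjusted p = 0.057). The channel gene delm-2, of the DEG/ENaC kind, differed by 0.59 in adults and rose by 1.12 in larvae. None of tts-1, sip-1, bir-2, pkhm-2 and delm-2 had a called stage difference.

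Known DAF-16 targets were examined as lists. Of 22 class 1 targets, genes that DAF-16 raises, 9 were lower and 0 higher in mutant adults, a share of 40.9% against 3.00% of all genes in either direction. In mutant larvae 3 were lower and 0 higher, mtl-1, nnt-1 and sip-1, a share of 13.6% against 0.118%. The list's median difference was −0.60 in adults and −0.19 in larvae, beside 0.02 and −0.02 for all genes. In adults 20 of the 22 lay below 0, in larvae 16, and 15 lay below 0 at both stages. The adult effect was the larger one for 18 of the 22, and limma called a stage difference for 0 of them, with 9 at an unadjusted p under 0.05.

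Single class 1 genes showed the pattern. The lysozyme gene lys-7 read 7.37, 7.29 and 7.04 in mutant adults, against 8.28, 9.48 and 8.46 in wild-type adults. In larvae lys-7 read 5.93, 5.51 and 5.92 in the mutant, against 6.47, 6.52 and 6.43 in the wild type. All mutant arrays lay below all wild-type arrays of their stage. The adult fall was 1.5 ± 0.24 (limma adjusted p = 0.00078), and the larval difference was −0.69 (adjusted p = 0.66). The small heat shock protein gene hsp-12.3 read 4.61, 5.02 and 4.88 in mutant adults, against 6.96, 5.97 and 6.01 in wild-type adults. Its larval groups overlapped (0.04), and its stage difference of −1.52 had an adjusted p of 0.093. The gene dod-3 fell by 1.34 in adults and differed by −0.70 in larvae. The fall of hsp-12.6 was 1.05, and its call was lost in 4 of the 12 fits without 1 array. The LEA protein gene lea-1, of desiccation tolerance, fell by 0.75 in adults and differed by −0.64 in larvae (adjusted p = 0.077). The glutathione S-transferase gene gst-4 fell by 0.90 in adults. Several widely used reporters of DAF-16 were not called at either stage. The adult and larval differences were −0.45 and −0.21 for sod-3, −0.56 and −0.42 for icl-1, −0.54 and 0.20 for fat-5, and 0.23 and 0.36 for hsp-16.2. The groups of sod-3 still did not overlap in adults, at 3.30, 2.76 and 2.95 in the mutant, against 3.62, 3.36 and 3.38 in the wild type, values at or below the array medians.

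Of 13 class 2 targets, genes that are lower where DAF-16 is active, 3 were higher in mutant adults and 1, ins-7, was lower, a share of 30.8% against 3.00% of all genes. In larvae limma called 0, with 5 at an unadjusted p under 0.05. The list's median difference was 0.32 in adults and 0.28 in larvae, and 6 of the 13 lay above 0 at both stages. The gut peptide transporter gene pept-1 rose by 0.69 ± 0.12 in adults (limma adjusted p = 0.002) and differed by 0.34 in larvae. For dod-17 the differences were 0.67 and 0.58, and for dod-24 they were 0.94 and 0.75. The adult call was lost in 8 of the 12 fits without 1 array for dod-24, and for dod-17 without the third wild-type or the third mutant adult array. None of pept-1, dod-17 and dod-24 had a called stage difference.

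**Figure D4:**
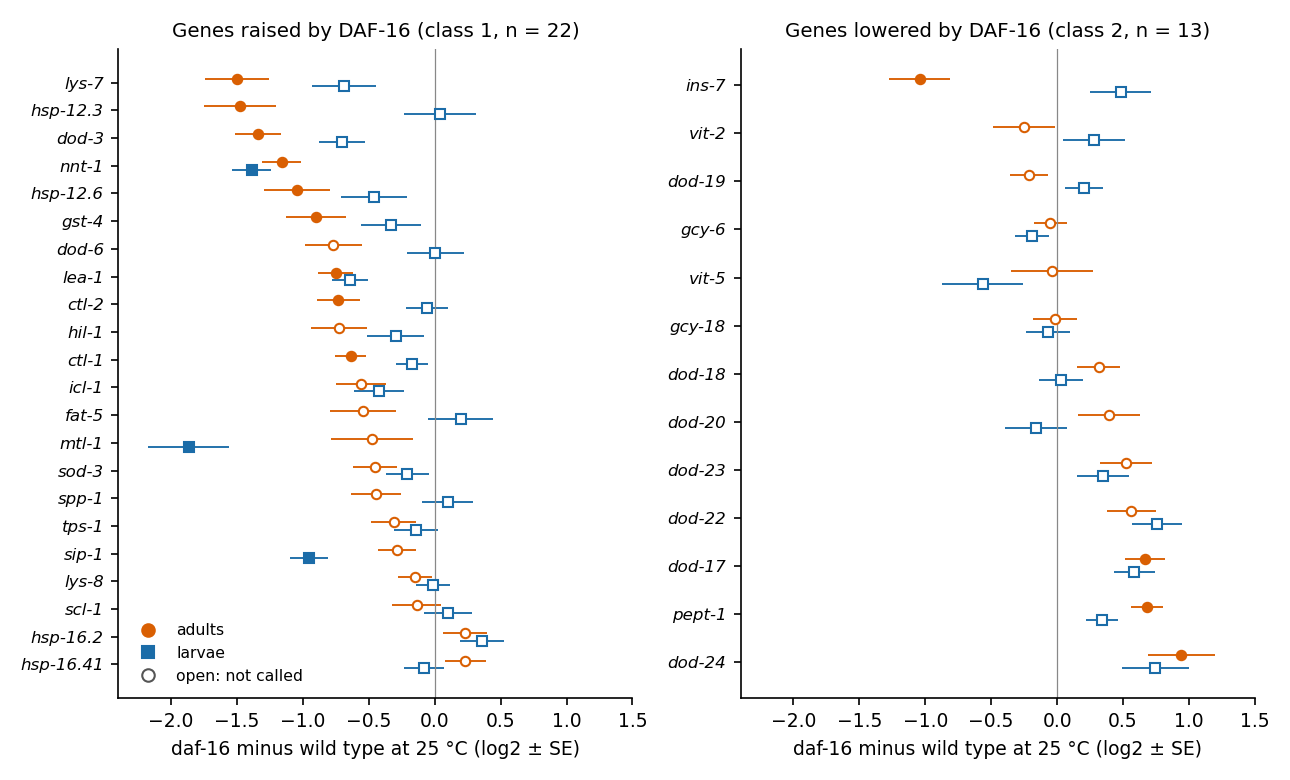
Mutant-minus-wild-type difference at 25 °C (horizontal axis, log2, bars 1 SE) in adults and larvae for 22 class 1 and 13 class 2 targets of DAF-16, with filled symbols where the gene was called. In class 1, 20 of 22 adult values lie left of 0 and 3 larval values are filled, and in class 2 ins-7 alone is called to the left of 0.

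Few other genes of the pathway were called. Of 14 genes of the core pathway from DAF-2 to DAF-16, daf-16 and the kinase gene akt-2 were lower in mutant adults (14.3%, compared with 3.00% of all genes). The deletion is in daf-16 itself, so its call is no result about the list, and akt-2 was the only other gene called. The akt-2 values were 6.80, 6.81 and 6.75 in mutant adults, against 7.78, 7.98 and 7.99 in wild-type adults. This is a fall of 1.13 ± 0.15 (limma adjusted p = 0.00012), and the larval difference was −0.56 (adjusted p = 0.33) without a called stage difference. Of 17 partner and longevity transcription factors, limma called 0 at either stage, with 2 at an unadjusted p under 0.05 in adults and 2 in larvae.

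Stress and defence genes were called mainly in adults, as were all genes, of which 3.00% were called in adults and 0.118% in larvae. Of 19 genes against oxidative damage, 4 were lower in mutant adults (21.1%, compared with 3.00% of all genes called in adults), the catalase genes ctl-1, ctl-2 and ctl-3 at −0.64, −0.73 and −0.80 and the superoxide dismutase gene sod-5 at −0.68. The catalase genes lie side by side and are near copies, so their probes may share signal. Single arrays decided some of these calls, 3 fits without 1 array losing ctl-2, 3 losing ctl-3 and the one without the third mutant adult array losing sod-5 (adjusted p = 0.060). Of 21 heat shock genes, hsp-12.3 and hsp-12.6 were lower in adults (9.52%) and sip-1 in larvae, and of 2 metallothioneins mtl-1 was lower in larvae. Of 44 lysozyme and saposin genes, 4 were lower and 2 higher in adults (13.6%). Among them ilys-3 fell by 0.89 and spp-2 by 0.90, while spp-23 rose by 1.01, and 6 of the 12 fits without 1 array lost the call of ilys-3 and 6 that of spp-23. Of 62 antimicrobial peptide genes, 6 were higher and 1 was lower in mutant adults (11.3%), and the list's median difference was 0.02, the same as over all genes. For the fungus-induced gene fipr-1 mutant adults read 7.44, 7.78 and 7.84, against 4.88, 5.21 and 6.61 in wild-type adults, a rise of 2.12 ± 0.39 (limma adjusted p = 0.003). The rise was 1.57 for nlp-28 and 0.85 for nlp-31, and abf-2 fell by 1.32. Of 247 C-type lectin genes, 6 were higher and 4 lower in adults (4.05%), near the 3.00% of all genes. Of these lists, larval calls were made for mtl-1 and sip-1 alone.

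Metabolic lists followed. Of 184 detoxification genes, 13 were lower and 7 higher in mutant adults (10.9%, compared with 3.00% of all genes called in adults). In larvae limma called 0 of them, compared with 0.118% of all genes, with 14 at an unadjusted p under 0.05. The same 3.00% is the background for the adult shares of the metabolic lists below. Those of the lipase, sugar and elongase lists rest on few called genes. The cytochrome P450 gene cyp-13A5 fell by 1.88 and cyp-34A9 by 1.54, while cyp-35A4 rose by 1.51, and the call of cyp-34A9 was lost without the second wild-type adult array (adjusted p = 0.057). One UDP-glucuronosyltransferase gene, ugt-64, had a called stage difference, −1.02, with −0.79 in adults. Of 8 lysosomal lipase genes lipl-2 and lipl-4 were lower in adults (25%). The gene lipl-4, whose product is known for a role in long life, fell by 1.37 ± 0.17 (limma adjusted p = 2.6e-05). Of 18 genes of sugar metabolism, the phosphoenolpyruvate carboxykinase genes pck-1 and pck-2 fell by 1.26 and 0.56, and the trehalase gene tre-3 rose by 0.61 (16.7% of the list). Of 16 desaturase and elongase genes, elo-6 and elo-7 were lower in adults (12.5%). Calls were lost in 8 of the 12 fits without 1 array for elo-6, 3 for elo-7 and 6 for tre-3, and the fall of elo-7 ran from 0.59 to 1.32 over those fits. Of 5 vitellogenin, 12 aquaporin and 31 proteasome genes, limma called 0 at either stage, and in adults 0, 1 and 1 of them had an unadjusted p under 0.05. Of 71 ribosomal protein genes 6 were lower and 0 higher in mutant adults (8.45%), at −0.38 to −0.63, with a list median of −0.20, compared with −0.04 in larvae. The count of lower genes in adults was 15 with all arrays quantile-normalized together, 11 with cyclic loess, 12 with a trended robust variance prior, 18 with array weights, 3 with the arrays of 1 temperature and 2 to 9 without 1 array. The lowest of these was without the second mutant adult array, and the count was 3 without the second or the third wild-type adult array. The single stage call in that list, rps-27 at −0.60, was lost in 10 of the 12 fits without 1 array.

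Surface, regulatory and timing genes gave few calls, beside 3.00% of all genes called in adults and 0.118% in larvae. Of 171 collagen genes 4 were lower in mutant adults (2.34%), and of 103 moulting genes 3 were higher and 1 lower (3.88%), near the share of all genes. Of 188 F-box genes 5 were higher and 2 lower (3.72%), and of 271 nuclear receptor genes 2 were higher and 1 lower (1.11%). Of 109 neuropeptide genes 3 were higher and 2 lower (4.59%). Of 8 heterochronic and 32 cell division genes, limma called 0 at either stage, and 1 of each had an unadjusted p under 0.05 in adults. None of these lists had a larval call.

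Markers of tissues were read beside the adult effects. Of 61 early embryo genes, 1 was higher and 2 were lower in mutant adults (4.92%, compared with 3.00% of all genes). Their summed linear signal ran from 5240 to 5810 in mutant adults, against 4010 to 5030 in wild-type adults, without overlap. At 15 °C it ran from 3950 to 4070 in mutant adults, against 2740 to 3300 in wild-type adults, again without overlap, and 11 of the 61 (18%) were called higher and 0 lower, compared with 1.47% of all genes. In larvae that sum ran from 639 to 749 in the mutant, against 727 to 1010 in the wild type, and 51 and 52 of the 61 genes lay below the array median. Oocyte markers, 31 genes of which limma called 0 and 2 had an unadjusted p under 0.05 in adults, summed to 57100 to 60600 in mutant adults, against 58800 to 61600 in wild-type adults. Sperm markers, 59 genes with ssp-28 lower in adults (1.69%), summed to 2580 to 2850 in mutant adults, against 2380 to 4170 in wild-type adults. For 22 intestinal genes, of which cpr-5, pept-1 and pho-1 were higher and ges-1 was lower (18.2%), the sums were 13500 to 14300 in mutant adults, against 12300 to 15000 in wild-type adults. Muscle sums were 9530 to 10700 in mutant adults, against 10500 to 11400 in wild-type adults, with tnt-2 called lower among 21 genes (4.76%). Neuronal sums were 6160 to 7050 in mutant adults, against 6400 to 6600 in wild-type adults, with ric-19 called lower among 23 genes (4.35%). The adult sums given above for these other tissues overlapped between genotypes. At 15 °C the oocyte sums ran from 58100 to 61800 in mutant adults, against 62600 to 65500 in wild-type adults, without overlap. Neuronal sums there ran from 4610 to 4980 in mutant adults, against 4260 to 4420 in wild-type adults, also without overlap. Sperm, intestinal and muscle sums overlapped in adults at 15 °C. Single arrays decided part of these calls, with 3 of the 12 fits without 1 array losing ssp-28, 4 cpr-5, 2 pho-1, 3 ges-1 and 1 tnt-2. The part of the embryo markers in the adult effects was not tested.

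The arrays at 15 °C gave the same contrasts again. Their means did not enter the differences at 25 °C, but the fit took each gene's variance from all 24 arrays. With the 12 arrays of 1 temperature alone, 79 stage differences were called and 13 adult-only genes were also called in adults at 15 °C. Differences at 25 °C chose the genes, so a smaller median at 15 °C has no test here. In adults at 15 °C, 374 genes were called (1.47%; 0.959% higher and 0.511% lower), in larvae 18 (0.0708%), and for the stage difference 55 (0.216%). Of the adult-only genes, 84 (80.8%) had the same sign in adults at 15 °C, compared with 60.7% of the genes called nowhere, and 26 (25%) were called there in that direction. For the 65 lower genes these counts were 47 (72.3%, compared with 61.1% of the uncalled genes with a negative difference) and 15, and the median difference in the adult direction was 1.33 at 25 °C and 0.151 at 15 °C. For the 39 higher genes they were 37 (94.9%, compared with 60.5% of the uncalled genes with a positive difference) and 11, with medians of 0.955 and 0.418. Of the 9 shared genes 8 had the same sign in adults at 15 °C and 4 were called. Of the 649 adult genes with an unsettled class, 536 (82.6%) had the same sign in adults at 15 °C, close to the 80.8% of the adult-only genes. The share was 87.3% for the higher and 78.4% for the lower genes of that unsettled set. In the same direction 68 of the 649 were called at 15 °C (10.5%). The stage difference of the adult-only genes at 15 °C was called with the same sign for 7 of them.

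Genes differed in how far the adult effect was seen at 15 °C. For ins-23 the adult difference there was −1.46 (limma adjusted p = 0.00074), for swt-3 −1.28, for hen-1 −1.09 and for H32K16.2 −2.16, all called. For ent-6 it was −1.83 in adults and −1.81 in larvae at 15 °C, nearly the values at 25 °C. For scpl-1 the larval fall was also called at 15 °C, at 1.24 (adjusted p = 7e-06), and the adult difference was 0.17. For nnt-1 the larval fall of 1.0 was called at 15 °C, while the adult difference was −0.13 (adjusted p = 0.79). For icmt-1, unc-38 and dct-8 the adult differences at 15 °C were 0.12, −0.05 and −0.39, none called.

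The temperature dependence of the stage difference was tested directly, as the stage difference at 25 °C minus that at 15 °C. It was called for 9 genes (0.0354% of the genes tested), 7 negative (0.0275%) and 2 positive (0.00786%), and all 9 belonged to the adult-only class. The stage difference at 25 °C enters both this contrast and the definition of the class, so that overlap is not a separate result. At an unadjusted p under 0.05 there were 1264 genes, near the share of 0.05 expected where nothing differs. The values were −3.77 for icmt-1, −2.20 for idpp-2 and −1.64 for ser-4. Among sequence names they were −3.62 for W01C9.2, −2.56 for T05B9.3, −2.26 for Y110A2AL.3, −2.19 for C17C3.5, 1.45 for F40E10.5 and 1.62 for C10E2.5. For ser-4 the adult difference was −1.23 at 25 °C and 0.32 at 15 °C, the second not called. Of the 9 calls, 6 stayed in all 12 fits without 1 array, and those of C17C3.5, F40E10.5 and Y110A2AL.3 did not.

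**Figure D5:**
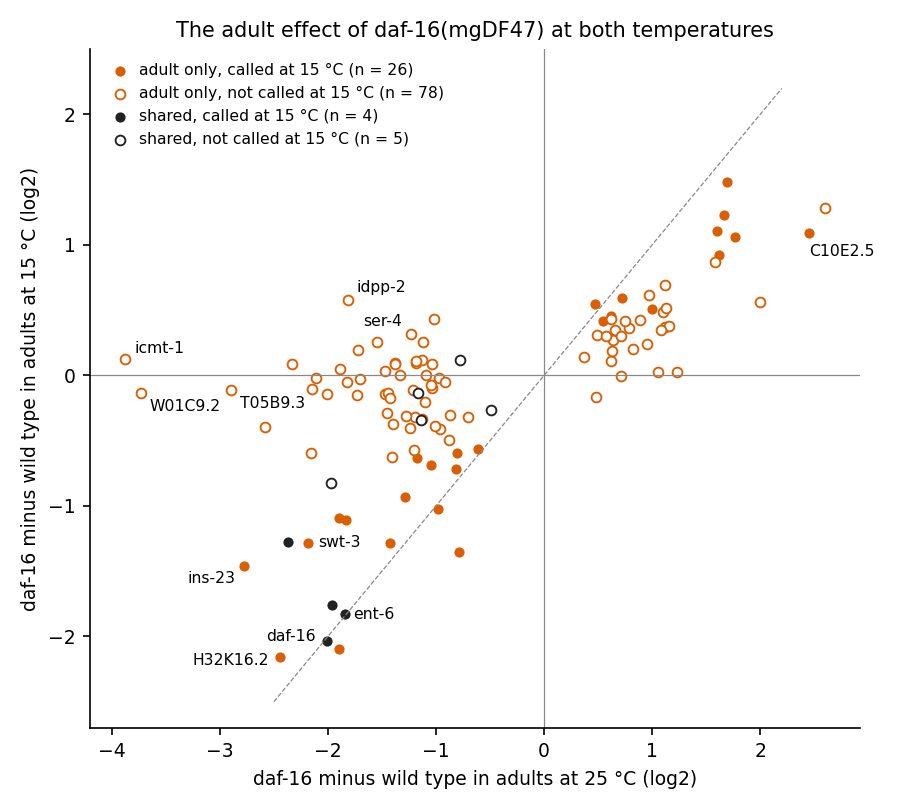
Mutant-minus-wild-type difference in adults at 15 °C (vertical axis, log2) against that at 25 °C (horizontal axis, log2) for the 39 higher and 65 lower adult-only genes and the 9 shared genes, filled where called at 15 °C, with equal effects on the dashed line. Among the adult-only genes 26 are filled, and icmt-1, W01C9.2 and T05B9.3 lie far left at a height near 0.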

How the data were processed

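RNA was measured on 24 Affymetrix C. elegans Gene 1.1 ST arrays, and the deposited values are log2 signals that the authors made with RMA, per the submitters' processing notes. The version of RMA is not given in the sources used here. Of 29317 probe sets, 25484 had a single gene symbol in the platform table, 700 had several and 3133 had none. Where several probe sets named a gene (41 genes), the brightest on average stood for it, and 25434 genes entered the tests without a filter on dim ones. Symbols were matched to RefSeq for 25433 probe sets, and RefSeq order gave the neighbours.

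A model of 8 group means on the 24 arrays was fitted in limma 3.58.1 under R 4.3.3 by lmFit, contrasts.fit and eBayes, and it had 16 residual degrees of freedom and 6.06 from the prior. Tests were two-sided, adjusted by Benjamini-Hochberg over all genes of each of 7 contrasts, and calls were made under 0.05. The number of arrays limits the precision. The code was tested on simulated data.

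The rule for named genes takes daf-16 with 11 known targets, and the 15 largest called stage differences in each direction with a gene name and groups that do not overlap. It adds shared genes with a name, up to 4 called members of each of 32 lists, and the largest temperature dependences of the stage difference. Members and lists were chosen with earlier results of these data known. Alternatives changed the arrays in the fit, scaling, normalization, filter, weights, variance prior, replicate block, probe set choice and thresholds, and left out arrays.

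Whether preparation numbers in the titles pair mutant and wild-type arrays was checked through each array's residual from its group mean, correlated over genes between arrays that share a number. The correlations were 0.15 to 0.45 in larvae at 25 °C, each above 0.1, −0.07 to 0.10 in adults at 25 °C, −0.03 to 0.05 in adults at 15 °C and −0.14 to 0.06 in larvae at 15 °C. By the limit of 0.1 the numbers pair the larval arrays at 25 °C and no others, and even there only number 3 correlated best with its own number. A block for each stage, temperature and number was fitted as an alternative.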

Additional observations from a re-analysis of the deposited data

Results flagged for a closer look

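The difference of the daf-16 effect between adults and larvae at 25 °C, tested directly with limma, was called for 113 genes. Among the 30 genes named by rule, the stage difference (log2) was −2.80 for icmt-1, −2.65 for ins-23, −2.37 for swt-3, −2.35 for dct-8, −1.87 for unc-38, −1.83 for hen-1, −1.79 for idpp-2, −1.78 for sri-43 and −1.74 for pqn-73. It was −1.69 for both odc-1 and spi-2, −1.66 for mfsd-8.1, −1.52 for ins-7, −1.49 for pho-9 and −1.40 for ttr-26. In the other direction it was 1.57 for parg-2, 1.32 for dmsr-11, 1.24 for nhj-1, 1.18 for mul-1, 1.15 for ceh-39, 1.10 for clec-74 and smd-1, and 1.09 for cnc-6 and lurp-4. It was 1.07 for gtnt-27 and rips-1, 1.03 for ceh-21, 1.02 for scpl-1, 1.01 for chil-25 and 0.94 for cyts-1.

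The stage difference itself differed between 25 °C and 15 °C for 9 genes, by −3.77 for icmt-1, −2.20 for idpp-2 and −1.64 for ser-4 among those with a gene name. Of 3833 probe sets with no single gene, which no comparison above uses, 37 had a called stage difference, 10 positive and 27 negative.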

How the results depend on the processing

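Of 4610 recomputed values of named genes, 4110 (89.2%) kept direction and call, 500 kept the direction and lost the call, and 0 reversed. The 113 stage calls became 55 to 257 when 1 array was left out, the lowest without the second and the highest without the first wild-type adult array, which retained 105 of the 113. Over those 12 fits, adult calls ran from 386 to 954 (762), larval from 24 to 39 (30), adult-only genes from 52 to 216, larval-only from 3 to 8 (5) and shared from 8 to 12 (9). Adult-only genes also called in adults at 15 °C ran from 12 to 40 (26), and genes with a temperature-dependent stage difference from 6 to 21 (9). Counts moved past 1.5 times without the first (stage 257), the second (55) or the third (temperature dependence 18) wild-type adult array. Counts did so too without the second (adult 464) or the third (stage 73) mutant adult array, the second (stage 74) or the third (check at 15 °C 15) wild-type larval array, or the second mutant larval array (adult-only 69). Array weights gave 384 stage, 2059 adult, 346 adult-only, 12 larval-only and 24 shared genes, 77 in the 15 °C check and 24 with temperature dependence. The block by preparation number within stage and temperature gave 113 stage calls, 82 of them the same genes, 14 shared genes, 16 in the 15 °C check and 15 with temperature dependence. Of the 30 genes in the plot of named stage differences it lost ins-7 (adjusted p = 0.089), dmsr-11 (0.089), mul-1 (0.059), lurp-4 (0.057), cyts-1 (0.084) and pho-9 (0.051). It also lost the stage calls of F45D11.1 (0.062), K09C4.4 (0.088), ins-27 (0.069) and rps-27 (0.093), the adult calls of hsp-12.6 (0.073), gakh-1 (0.055), ins-22 (0.063) and tre-3 (0.051), the larval call of bir-2 (0.13) and the temperature dependence of F40E10.5 (0.18). With a block by number common to all arrays the stage count was 141. Without preparation 3 of larvae in both genotypes there were 58 stage calls, 51 adult-only genes and 15 in the 15 °C check. Of the 30 named stage differences, 14 lost their call in that fit. Quantile normalization of all arrays together gave 59 larval calls (24 higher, 35 lower, instead of 3 and 27), 15 shared genes and a stage split of 31 to 73, with 29.8% positive instead of 40.7%. Centring each array on its median turned the adult split to 446 higher and 368 lower, instead of 345 and 417. Fitting 1 temperature alone gave 13 in the 15 °C check, and 10 of the 30 named stage differences lost their call. At an adjusted p under 0.01 there were 39 adult-only and 2 larval-only genes, and with at least 1 log2 unit 3 larval-only genes. The causes were not tested. With 3 arrays a group, dim genes and small effects are the least settled.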
